A study of Homo sapiens with 2 samples.

Results

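E2F1 chromatin immunoprecipitation followed by sequencing (ChIP-seq) in LNCaP-abl cells placed a peak over the transcription start site of 8 of 8 chosen genes. The genes encode minichromosome maintenance (MCM) proteins and were MCM2, MCM3, MCM4, MCM5, MCM6, MCM7, MCM8 and MCM10. MCM9 was not among them, and peaks at it were not analysed. The 8 genes were taken by name, with earlier results of these data known. A gene counted as occupied when a called peak overlapped the 2 kb on either side of a given hg19 start site. These windows held 8 of the 28734 peaks in the deposited list, 1 for each gene. Of windows of 4 kb along the nuclear chromosomes, 3.93% overlapped any peak, but the share of all start sites was not analysed. LNCaP-abl cells derive from the prostate cancer line LNCaP and grow without androgen. They were at passages 61 to 64, in 10% charcoal-stripped serum, and had spent 3 days in medium depleted of androgen. The samples of the series are an immunoprecipitation with antibodies against E2F1 from Santa Cruz Biotechnology and BD Pharmingen, and an input made without antibody from the same cells. The results rest on the peaks of the E2F1 library. The input was not used here, so enrichment over it is not given, and with 1 library the values have no replicate error. The list holds no counts, so its read depth is unknown. The identity of the cells could not be checked against marker genes, since no expression was measured.

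MCM2 to MCM7 form a ring of 6 related subunits that is loaded onto origins of replication in G1 phase by the origin recognition complex, CDC6 and CDT1. With CDC45 and the GINS complex the ring becomes the helicase that unwinds DNA ahead of the fork in S phase. E2F1 is a transcription factor that is held in check by the retinoblastoma protein and that drives genes for entry into S phase, and genes of the MCM ring are among its textbook targets. MCM8 carries the same helicase fold but is known for work with MCM9 in homologous recombination. MCM10 has a different fold despite its name, binds the ring and helps to activate it.

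The promoters of 6 of these genes, those listed in the table at hand, are shown so that sequences of the kind that E2F proteins are known to bind can be seen in them. Sequences are RefSeq promoters of 300 bases, of build GRCh38.p14, from 250 bases before the gene start to 50 bases from it, written along the gene's own strand. MCM2 lies at chr3:127598161-127598460 on the plus strand and MCM3 at chr6:52284693-52284992 on the minus strand. MCM6 lies at chr2:135876394-135876693 on the minus strand and MCM7, by its outermost start, at chr7:100101348-100101647 on the minus strand. MCM8 lies at chr20:5950402-5950701 on the plus strand and MCM10 at chr10:13161308-13161607 on the plus strand. Capitals mark E2F motifs on either strand, which for 5 genes are TTTCCCGC, TTTCGCGC or TTTGGCGC. The capitals of MCM10 mark TTTGGCGG, a related form added after the sequences had been seen.
MCM2: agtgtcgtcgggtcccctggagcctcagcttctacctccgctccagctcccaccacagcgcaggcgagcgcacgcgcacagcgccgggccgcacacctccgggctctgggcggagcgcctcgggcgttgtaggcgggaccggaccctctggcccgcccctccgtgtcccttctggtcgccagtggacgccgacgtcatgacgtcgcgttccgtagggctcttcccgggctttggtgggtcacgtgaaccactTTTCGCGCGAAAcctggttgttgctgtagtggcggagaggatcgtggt
MCM3: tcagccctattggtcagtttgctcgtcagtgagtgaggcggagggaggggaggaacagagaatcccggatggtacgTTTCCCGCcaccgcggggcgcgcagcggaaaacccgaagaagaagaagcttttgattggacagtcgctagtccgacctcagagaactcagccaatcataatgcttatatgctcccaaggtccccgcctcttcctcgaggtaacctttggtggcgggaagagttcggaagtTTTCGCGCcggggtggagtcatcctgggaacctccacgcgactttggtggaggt
MCM6: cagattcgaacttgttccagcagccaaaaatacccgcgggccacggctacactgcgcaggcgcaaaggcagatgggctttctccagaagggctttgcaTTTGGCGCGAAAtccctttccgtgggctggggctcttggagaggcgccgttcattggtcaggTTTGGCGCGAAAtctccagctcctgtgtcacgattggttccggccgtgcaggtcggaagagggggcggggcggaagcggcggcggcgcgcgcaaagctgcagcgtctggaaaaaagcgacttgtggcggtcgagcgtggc
MCM7: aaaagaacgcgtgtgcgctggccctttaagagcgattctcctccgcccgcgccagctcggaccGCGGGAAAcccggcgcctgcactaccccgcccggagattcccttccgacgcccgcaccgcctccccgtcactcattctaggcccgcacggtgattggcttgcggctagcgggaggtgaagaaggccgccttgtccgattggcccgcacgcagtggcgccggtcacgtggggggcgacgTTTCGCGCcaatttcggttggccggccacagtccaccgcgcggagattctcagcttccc
MCM8: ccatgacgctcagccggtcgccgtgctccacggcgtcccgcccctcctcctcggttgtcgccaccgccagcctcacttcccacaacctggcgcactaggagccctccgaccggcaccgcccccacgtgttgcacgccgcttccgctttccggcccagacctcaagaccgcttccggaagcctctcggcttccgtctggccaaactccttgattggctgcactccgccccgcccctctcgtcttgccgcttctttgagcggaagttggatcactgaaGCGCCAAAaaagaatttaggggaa
MCM10: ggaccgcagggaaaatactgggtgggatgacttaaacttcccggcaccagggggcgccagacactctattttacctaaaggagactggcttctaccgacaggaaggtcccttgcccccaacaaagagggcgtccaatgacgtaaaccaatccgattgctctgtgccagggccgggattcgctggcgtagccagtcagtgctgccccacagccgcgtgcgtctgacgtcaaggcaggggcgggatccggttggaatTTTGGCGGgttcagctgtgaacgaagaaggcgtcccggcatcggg
In MCM2 and at 2 places in MCM6, motifs of the plus and minus strand overlap in a run of 12 bases, which reads TTTCGCGCGAAA in MCM2 and TTTGGCGCGAAA in MCM6. The peaks are in hg19 and these promoters in GRCh38.p14, and neither was converted to the other, so the gene start of a promoter need not be the start site used for the peaks.

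The peaks at MCM genes were among the strongest of the list. Their scores, the authors' own values and of unknown scale, ran from 155 to 274 with a median of 209, against a median of 23.5 and a highest value of 333 over all peaks. As percentiles of all peaks, the share with the same or a lower score, they ran from 95.7 to 99.8 with a median of 98.4. So 8 of 8 were in the upper 5% and 3 were in the upper 1%. Among peaks of similar width (up to 25% wider or 20% narrower), the percentiles ran from 91.4 for MCM7 to 99.2 for MCM3. There MCM2, MCM7 and MCM8 were not in the upper 5%. For background, 3.93% of windows of 4 kb along the nuclear chromosomes overlapped any peak and 0.454% overlapped a peak of the upper 10%. Within 1 Mb around the MCM genes, 6.48% of the other windows overlapped any peak. Such windows need not hold a gene, and the share of all start sites with a peak was not analysed here. Peaks at other start sites were not set apart either. How the count of 8 and the scores compare with other promoters is therefore not given.

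Among the ring subunits, MCM3 had the highest score. Its peak, on chromosome 6 from 52149154 to 52150020 (hg19, 1-based, as for each peak here), scored 274 and ranked 68 of all 28734, at percentile 99.8. MCM6, on chromosome 2 from 136633610 to 136634417, scored 238 and ranked 232, at percentile 99.2. These were the members of the ring in the upper 1% of peaks.

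MCM5 and MCM2 lay close together in the middle of the order. The MCM5 peak, on chromosome 22 from 35795651 to 35796363, scored 210 and ranked 448, at percentile 98.4. The MCM2 peak, on chromosome 3 from 127316903 to 127317645, scored 207 and ranked 469, also at percentile 98.4. MCM5 forms with MCM2 the gate through which DNA enters the ring, and the MCM2 subunit also binds histones H3 and H4.

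MCM4 and MCM7 had the lowest scores of the ring. With MCM6 they encode the subunits of a stable subcomplex with helicase activity of its own. The MCM4 peak, on chromosome 8 from 48872500 to 48873897, scored 194 and ranked 600, at percentile 97.9. The MCM7 peak, on chromosome 7 from 99698018 to 99699713, scored 155 and ranked 1239, at percentile 95.7. Of all peaks, 4.31% scored as high as MCM7 or higher.

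The 2 genes outside the ring fell within its range. MCM10, on chromosome 10 from 13203227 to 13203861, scored 240 and ranked 223, at percentile 99.2, next to MCM6. MCM8, on chromosome 20 from 5930948 to 5931715, scored 191 and ranked 645, at percentile 97.8, next to MCM4. Without a replicate, differences between neighbours in this order have no error to be set against.

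**Figure D1:**
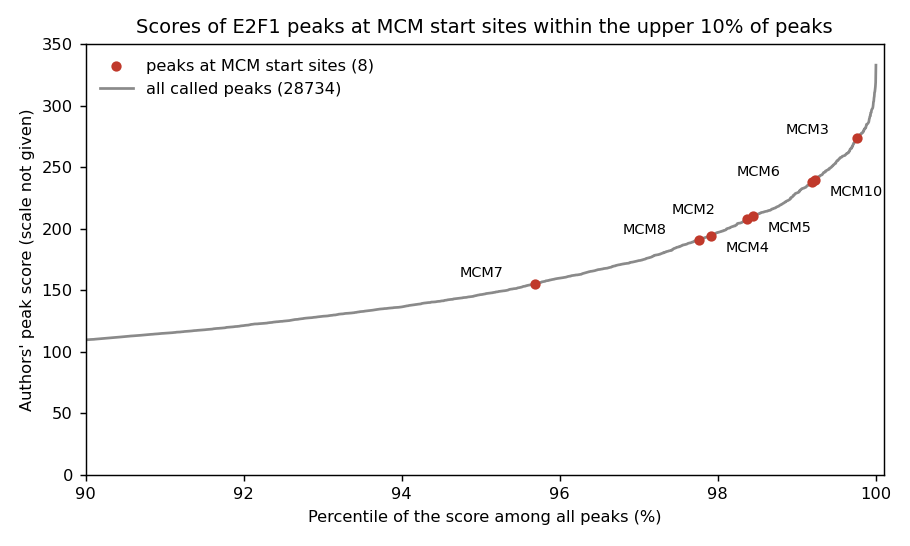
Authors' peak score against its percentile among all 28734 peaks, for percentiles of 90 and above. Red points are the 8 peaks at MCM start sites and the grey line is all peaks. MCM3 stands highest at 274 and MCM7 lowest at 155, and the other 6 lie between 191 and 240.

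Each of the 8 peaks covered the start site itself. The distance from the midpoint of the peak to the start site had a median of 53.8 bp and was at most 150 bp in 6 of 8 genes. It was 5 bp for MCM3, 10 bp for MCM10, 33.5 bp for MCM6 and for MCM8, 74 bp for MCM2 and 109 bp for MCM5. The exceptions were MCM4, at 281.5 bp, and MCM7, at 561.5 bp. Distances at other start sites were not analysed here, so how common such closeness is at other promoters is not given.

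Peaks at MCM3, MCM6, MCM8 and MCM10 reached nearly as far upstream as downstream of the start. At MCM3 the peak ran 438 bp upstream and 428 bp downstream, and at MCM10 327 bp upstream and 307 bp downstream. At MCM7 it ran 286 bp upstream, much like the others, but 1409 bp downstream into the gene. At MCM4 it ran 980 bp towards lower coordinates and 417 bp towards higher ones. The table of gene starts holds no strand for MCM4 and MCM5, so their sides are given by coordinate.

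**Figure D2:**
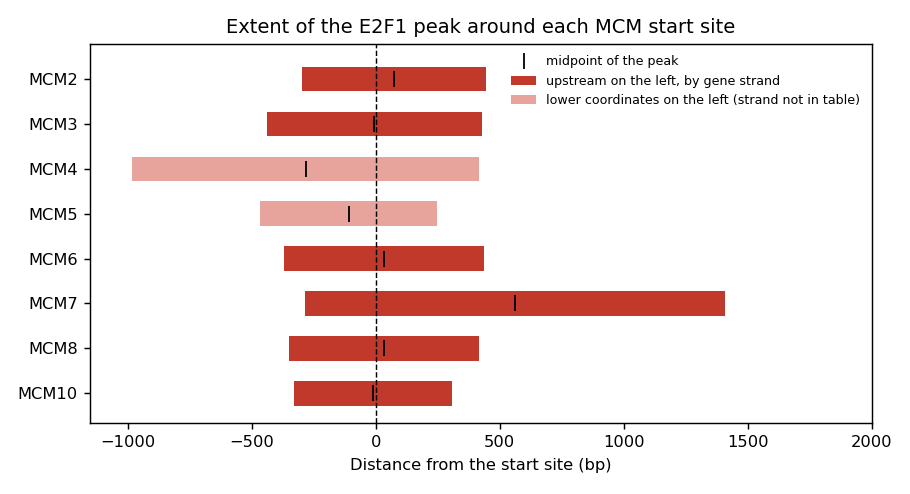
Extent of the called E2F1 peak around each start site in bp, with the start site at 0 and a tick at the midpoint of the peak. Upstream is on the left, except for MCM4 and MCM5, where lower coordinates are. The midpoints of 6 peaks lie within 150 bp of the start site, while the peak of MCM4 reaches 980 bp towards lower coordinates and that of MCM7 reaches 1409 bp downstream.

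MCM4 and MCM7 were also the wide ones. Their peaks measured 1398 and 1696 bp, at least as wide as 99.2% and 99.9% of all peaks, whereas the other 6 measured between 635 bp (MCM10) and 867 bp (MCM3). The median over the 8 was 788 bp. Among the 1239 peaks that scored as high as MCM7 or higher, the median width was 779 bp and the quartiles were 670.5 and 931.5 bp. Of these, 17.4% were wider than 1 kb. The widths at the 6 other genes lay within the quartiles except at MCM10, just below the lower one.

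**Figure D3:**
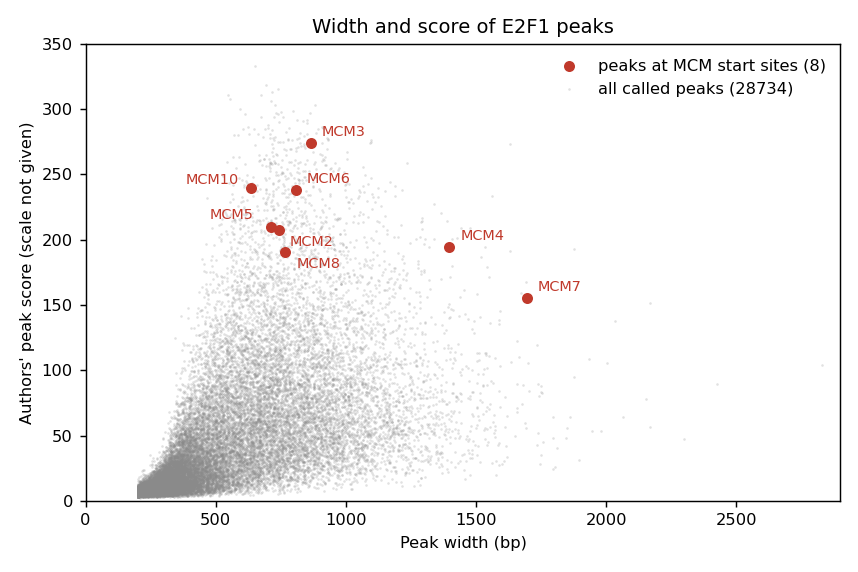
Authors' peak score against peak width in bp, with the 8 peaks at MCM start sites in red and all 28734 peaks in grey. The peaks of 6 genes stand at widths of 635 to 867 bp, and those of MCM4 and MCM7 stand apart at 1398 and 1696 bp.

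Several MCM genes start close to a second gene, so a peak there cannot be assigned to the MCM gene alone. In the RefSeq table, 3 of the 6 genes with a listed promoter start head to head with a protein-coding gene on the opposite strand within 2 kb upstream. MCM2 starts 180 bp from TPRA1, MCM7 starts 246 bp from AP4M1, which encodes a subunit of an adaptor complex of vesicle transport, and MCM8 starts 119 bp from TRMT6, which encodes a subunit of a tRNA methyltransferase. Of 15842 protein-coding genes with a promoter in the table, 12.1% have such a neighbour. MCM4 lies next to PRKDC, the gene for the catalytic subunit of DNA-dependent protein kinase, which is on its side of lower coordinates in the RefSeq table. There 804 bp lie between the genes, and the MCM4 peak reached 980 bp to that side of its hg19 start site. Whether the peak reaches PRKDC was not tested, as the builds differ. MCM3, MCM6 and MCM10 have no such neighbour by the head-to-head rule, and MCM4 and MCM5 could not be assessed by it. The genes with the 3 highest scores were MCM3, MCM10 and MCM6, but whether score goes with such a neighbour was not tested.

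MCM7 has further starts within its own gene. The table lists 3 starts, of which the inner ones lie 643 and 868 bp downstream of the outermost. Whether the long downstream side of the MCM7 peak holds separate sites at several starts could not be resolved, as the list gives no summits. MCM7 also hosts 3 microRNA genes, of which the nearest lies 7323 bp downstream of the outermost start. They are shown because miR-106b and miR-93 are known to repress E2F1 itself. Mature sequences are from RefSeq, on chromosome 7 of GRCh38.p14, with the seed (bases 2 to 8) in capitals.
hsa-miR-106b-5p: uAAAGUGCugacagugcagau
hsa-miR-93-5p: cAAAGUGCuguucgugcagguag
hsa-miR-25-3p: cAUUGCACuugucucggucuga
The miR-106b-5p and miR-93-5p seeds are the same, AAAGUGC, and that of miR-25-3p is AUUGCAC. The nearest other E2F1 peak, on the gene's downstream side, lay 11155 bp from the edge of the MCM7 peak and scored 119, on chromosome 7 from 99686295 to 99686862. The microRNAs themselves were not measured.

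Other E2F1 peaks mostly lay over 10 kb from those at MCM genes. The nearest other peak lay a median of 28286 bp away, edge to edge, against 16101 bp for all nuclear peaks and 19660 bp for the 1239 as strong as MCM7. Only MCM2 had another peak within 10 kb, a 1168 bp peak 6677 bp away that scored 44.2, at percentile 66.1. This was also the peak that came closest to any window without entering it. No other peak within 10 kb was seen for 7 of 8 genes, against 60.5% of nuclear peaks and 70.0% of the 1239 strong ones. No other peak within 50 kb was seen for 1 of 8 genes, MCM10, against 21.9% of nuclear peaks. The share of the strong peaks at 50 kb was not computed. With only 8 genes, the differences from these shares at 10 kb and 50 kb were not tested.

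The neighbours differed in strength. At MCM3, MCM6 and MCM4 the nearest other peak was weak, with scores of 6.65, 7.03 and 7.88, each in the lowest 20% of the list. At MCM10 it scored 27.5 and lay 60839 bp away, the greatest distance of the 8. At MCM5 and MCM8 it scored 43.3 and 55.5. MCM7, with a neighbour that scored 119, was again the exception.

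The MCM peak was the highest within 500 kb on either side at 7 of 8 genes. The same held for 65.9% of the 1239 strong peaks. At MCM10 the highest other peak in that range scored 74.2, and at MCM4 79.0, against the 240 and 194 of the genes themselves. It came closer elsewhere, at 179 for MCM6, 164 for MCM3, 149 for MCM8, 147 for MCM5 and 109 for MCM2. MCM7 ranked lower, behind peaks of 159 and 211 that lay 326.7 and 437.2 kb away. Its region was also the fullest, with 29 other peaks within 500 kb, against 10 to 17 at the other 7 genes.

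**Figure D4:**
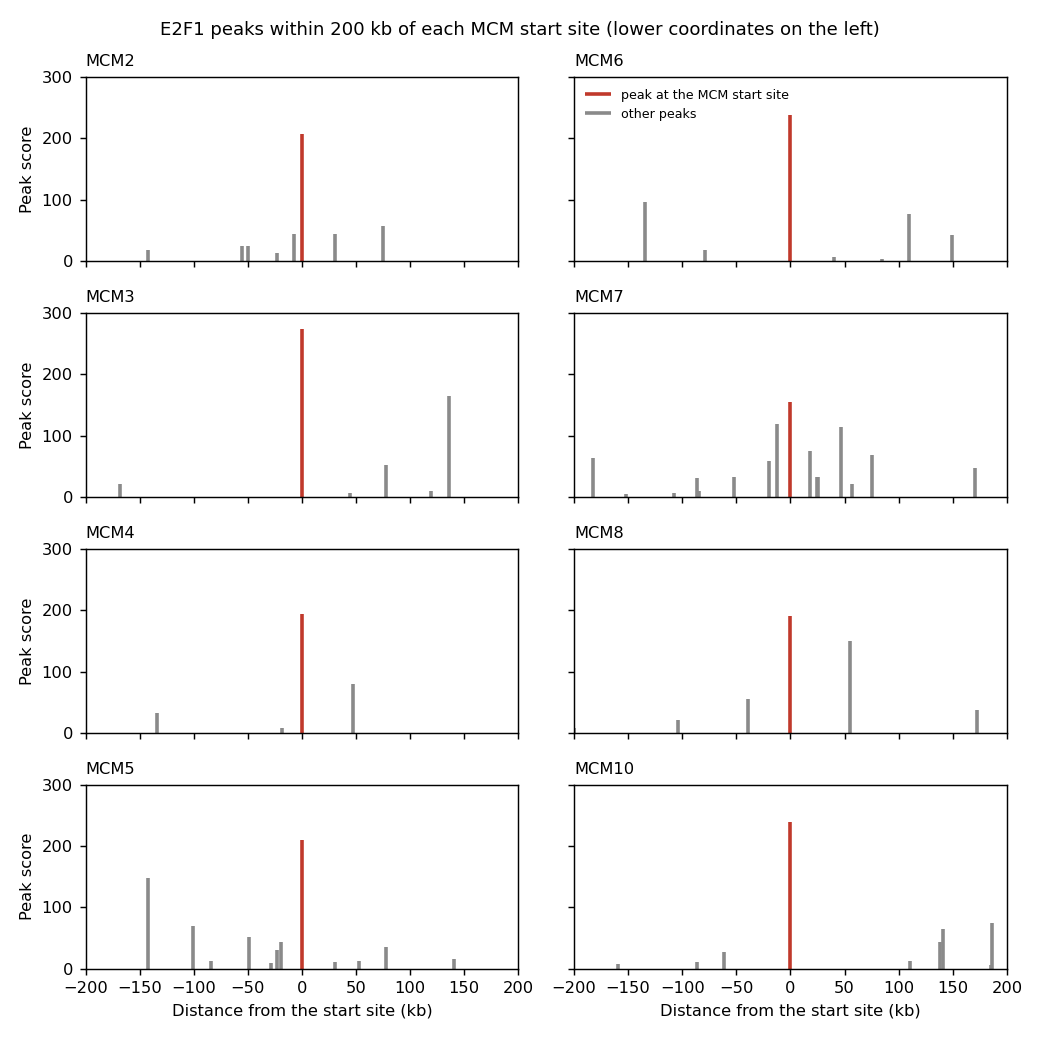
E2F1 peaks within 200 kb of each MCM start site, with the distance in kb on the horizontal axis and the authors' score on the vertical axis. Red lines are the peaks at the MCM start sites, each the highest in its panel, and grey lines are the other peaks, from 3 around MCM4 to 15 around MCM7.

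In most of the promoters shown above, an E2F motif lay close to the gene start. The motif was set as TTTCCCGC, TTTCGCGC, TTTGCCGC or TTTGGCGC on either strand, and 5 of the 6 promoters held it, against 4.44% of 15842 protein-coding promoters of the same length and 3.31% of all 35116. With positions counted from 0 at the first base of the gene, it began at 2 in MCM2, at -4 in MCM3, at -9 in MCM7 and at 26 in MCM8. In these 4 genes a motif thus began within 30 bases of the start, on either side. The share of all promoters with a motif that close was not analysed here. From 150 bases before to 50 after the start, 5 of 6 promoters held the motif, against 3.16% of protein-coding ones.

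MCM3, MCM6 and MCM7 held the motif at 2 separate places, as did 0.202% of protein-coding promoters. The second place began at -174 in MCM3 and at -187 in MCM7, and the places in MCM6 began at -152 and -90. The number of places did not follow the score, since MCM3 and MCM7, the highest and the lowest peak, each had 2.

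MCM10 did not hold the motif in these letters, although its peak was the second highest of the 8. The related form TTTGGCGG, which ends in another base, began at 5 in its promoter. Forms with that ending were added after the sequences had been seen. With them, 6 of 6 MCM promoters held a motif, against 8.12% of protein-coding promoters.

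Other elements of promoters were present as well. CCAAT, the box bound by NF-Y, was found in 5 of 6 promoters (not in MCM2), against 36.4% of protein-coding ones. GGGCGG, the box bound by SP1, was found in 5 of 6 (not in MCM3), against 58.3%. TTTGAA, a form of the element of genes expressed late in the cell cycle, was found in 0 of 6, against 12.2%. Together with its variant TTCGAA it was found in 1 of 6, MCM6, against 13.6%. Each was searched on both strands, and a match in letters is not a site of binding. The promoters held 21 to 39 CpG dinucleotides, against a median of 22 in protein-coding promoters, with MCM7 highest and MCM10 lowest.

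**Figure D5:**
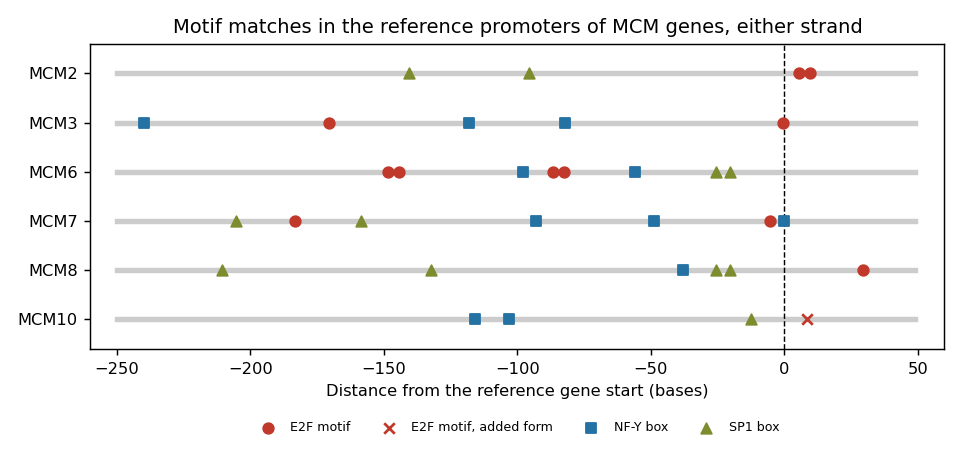
Matches of the E2F motif, the NF-Y box (CCAAT) and the SP1 box (GGGCGG) in 6 RefSeq promoters, in bases from the gene start. E2F matches lie at or near the start in MCM2, MCM3 and MCM7 and at 26 to 33 in MCM8. Those of MCM6 and the second of MCM3 and of MCM7 lie upstream. The match of MCM10, a cross at 5 to 12, is of the form added after the sequences had been seen.

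Other genes of replication were set beside the MCM genes by promoter sequence alone, because no hg19 start sites were at hand for them. Of a list of 27 genes for origin licensing, helicase activation and fork protection, 23 had a promoter in the table and 8 of these held the E2F motif in its 4 forms, against 4.44% of protein-coding promoters. With the first T left off, 12 of the 23 held it, against 17.0%. The 8 were CDC6 and CDT1, which load the MCM ring, GINS1, GINS2 and GINS3, which complete the helicase, and ORC3, TOPBP1 and CLSPN. MCM9, the partner of MCM8, was not among them. Peaks at these genes were not analysed here.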

How the data were processed

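The series has 2 samples, an E2F1 immunoprecipitation and an input, and 1 library, the E2F1 one, has a peak list. Per the labels' protocols, DNA from sonicated nuclei went into ThruPLEX-FD libraries. The submitters' processing notes name the build hg19 and the tools MACS2 2.0.9, Bowtie and CASAVA 1.6.0. Not given in the sources used here are their roles and settings, the peak threshold and any use of the input. The score deposited by the authors for each peak has no named scale and may depend on local background as well as on signal. It was therefore used only to describe and rank peaks within the list. Starts were taken as 0-based and are printed 1-based.

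The MCM genes, their start sites, the gene list and the motifs were chosen with earlier results of these data known, so values are descriptions, with no test. All 8 genes are named, with genes that start head to head with them. For the highest-scoring peak in each window, percentile, width, position and distance to the nearest other peak were computed with numpy 2.4.6, pandas 2.3.3 and scipy 1.17.1 under Python 3.11.15, and drawn with matplotlib 3.10.9. Background windows of 4 kb were tiled along each nuclear chromosome between its outermost peaks. Motifs were matched by letters on both strands of RefSeq promoters, at the outermost start of each gene. Overlap, tiling and motif search were tested on simulated data. MCM4 and MCM5 have no promoter sequence here. Alternatives were other windows, overlaps, score thresholds, percentile bases and motif forms.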

Additional observations from a re-analysis of the deposited data

How the results depend on the processing

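The count of 8 of 8 genes with a peak was the same with windows of 500 bp to 10 kb either side. It also held with the midpoint or at least 50% of the peak in the window, and in the upper 50% and upper 10% of peaks. None of these settings could have changed it. Each peak covers its start site, lies wholly within 2 kb of it and is in the upper 5%. The median percentile, 98.4 over all peaks, was 99.0 within the same chromosome and 96.8 among peaks of at least the median width. Within their own chromosome, percentiles were 98.9 for MCM2, 99.8 for MCM3, 98.2 for MCM4, 99.1 for MCM5 and 99.4 for MCM6. They were 96.3 for MCM7, 98.0 for MCM8 and 99.1 for MCM10. Only that of MCM10 was lower than over all peaks (99.2). Among peaks of similar width (up to 25% wider or 20% narrower) they were 94.7 for MCM2, 99.2 for MCM3, 96.2 for MCM4, 95.2 for MCM5, 96.9 for MCM6, 91.4 for MCM7, 93.0 for MCM8 and 98.2 for MCM10. Over all peaks, the Spearman correlation of score and width was 0.80, and among the 1239 strong ones it was 0.019. The median width was 418 bp over all peaks and 788 bp over the 8. The cause of the lower percentiles among peaks of similar width was not tested. The median distance to the start site was 0 bp from the nearest edge, since each peak covers it. Windows within 1 Mb around the genes overlapped a peak in 6.48%, against 3.93% over the genome. The E2F motif was in 4 or 5 of 6 promoters under the planned settings, with 4 when only TTTCCCGC and TTTGGCGC counted (3.05% of protein-coding promoters). Only with the forms added after the sequences had been seen was it in 6 of 6, against 8.12% of protein-coding promoters. Without the first T, 5 of 6 held it, against 17.0% of protein-coding promoters. Start sites of an hg19 annotation and protein features were not run, for want of those references. No paired analysis was possible because the values come from 1 library. The limits set by depth are unknown without read counts.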
